A study of Homo sapiens with 16 samples.

Results

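The 4 cell lines KOPT-K1, LOUCY, SUP-T11 and TALL-1 kept RNA of the tumour suppressor gene CDKN2A, and they were set against the 12 lines of the same series in which that RNA was near background. The lines were chosen by a measured value, namely the CDKN2A probe set with the highest mean, which lay above 1000 in the 4 lines (the high side) and below 60 in the other 12 (the low side, with ALL-SIL, CCRF-CEM, DU528, HSB-2, JURKAT, MOLT-16, MOLT-4, P12-ICHIKAWA, PEER, PF-382, SKW-3 and SUP-T13). All 16 are established human lines of T-cell acute lymphoblastic leukaemia, a cancer of immature T cells, and all were untreated and grown for 24 hours in the same medium at equal density. Total RNA of each line was hybridised to 1 Affymetrix U133 Plus 2.0 array, so the lines themselves are the replicates of a side. The sides are not isogenic, since each line comes from its own leukaemia, and the labels give no genotype for CDKN2A. T-cell RNA was present in the high lines, with CD3D, a subunit of the T-cell receptor complex, between 9892 and 14041 in intensity.

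CDKN2A sits on the short arm of chromosome 9 and makes p16INK4a and p14ARF from separate first exons. p16INK4a inhibits the kinases CDK4 and CDK6, which with D-type cyclins phosphorylate the RB protein and so release E2F transcription factors that drive the genes of DNA replication. p14ARF binds MDM2 and thereby stabilises p53, and in T-cell leukaemia the locus is very often deleted together with its neighbour MTAP.

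The 250 bases before each RefSeq start of CDKN2A and before that of MTAP are shown (GRCh38.p14, 5′ to 3′ on the gene's strand, CG dinucleotides in capitals), because CDKN2A defines the sides and MTAP is the adjacent expressed gene that the choice did not use. In genome order from the telomere they lie on chromosome 9, with MTAP on the plus strand and both CDKN2A starts on the minus strand.

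MTAP, chr9:21802386-21802635: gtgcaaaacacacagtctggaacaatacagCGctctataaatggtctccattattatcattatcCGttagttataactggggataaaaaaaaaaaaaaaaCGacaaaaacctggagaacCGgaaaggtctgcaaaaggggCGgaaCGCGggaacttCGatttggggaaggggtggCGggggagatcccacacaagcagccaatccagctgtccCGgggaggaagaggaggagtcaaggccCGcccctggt

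CDKN2A, start of the p16INK4a transcript, chr9:21974858-21975107: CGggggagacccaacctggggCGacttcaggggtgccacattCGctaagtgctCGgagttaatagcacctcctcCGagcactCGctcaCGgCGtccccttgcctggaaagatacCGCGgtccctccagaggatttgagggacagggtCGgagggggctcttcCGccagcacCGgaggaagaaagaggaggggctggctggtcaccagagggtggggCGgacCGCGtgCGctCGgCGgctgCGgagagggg

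CDKN2A, start of the p14ARF transcript, chr9:21995325-21995574: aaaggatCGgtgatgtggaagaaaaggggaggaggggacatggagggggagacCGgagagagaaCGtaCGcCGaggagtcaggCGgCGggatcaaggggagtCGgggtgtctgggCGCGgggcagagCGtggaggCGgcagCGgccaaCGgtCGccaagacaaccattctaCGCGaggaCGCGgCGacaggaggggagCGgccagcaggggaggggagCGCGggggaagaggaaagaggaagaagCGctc

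The stretch before the p16INK4a start held 20 CG dinucleotides and that before the p14ARF start held 24, and 32.4% and 23.7% of 35116 RefSeq promoter entries held at least as many. MTAP had 11, which is the median of those entries. The arrays give RNA only, so a deleted locus and a silent one cannot be told apart from these values.

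The chosen CDKN2A probe set read 1258 in KOPT-K1, 3198 in LOUCY, 3675 in SUP-T11 and 2296 in TALL-1. On the low side the lowest, median and highest values were 8.30, 27.9 and 50.85. The line nearest the threshold from above was KOPT-K1, and the highest line below it was P12-ICHIKAWA. A further CDKN2A probe set read 152.8, 542, 659 and 227 in the same order of lines and from 13.01 to 26.8 on the low side, while the third stayed below 39 everywhere, at most 38.4 in SUP-T11. These values made the groups and carry no test. Which of the transcripts each probe set reads was not examined.

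MTAP, the enzyme that salvages methionine and adenine from the by-product of polyamine synthesis, was measured in all 4 high lines, at 521 in KOPT-K1, 544 in LOUCY, 248 in SUP-T11 and 592 in TALL-1. On the low side 9 of 12 lines lay between 4.08 and 11.5. The other low lines kept it, with 979 in MOLT-4, 389 in SUP-T13 and 219 in PEER, so the sides overlapped. The difference, high minus low in log2(intensity + 16), was 3.27 ± 0.98 (SE), with a limma Benjamini-Hochberg adjusted p = 0.559 over 13328 genes. Among the 8 lines with low TAL1, described later, the difference was 3.47 ± 0.79 (SE), with a limma adjusted p = 1. The sides did not overlap there on this probe set, with SUP-T11 at 248 and PEER at 219. They did overlap on another MTAP probe set, where PEER read 278 and SUP-T11 190.0.

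Other MTAP probe sets placed ALL-SIL, HSB-2 and P12-ICHIKAWA differently. The one nearest to the chosen probe set read 418, 275, 190.0 and 408 in KOPT-K1, LOUCY, SUP-T11 and TALL-1 and at most 15.6 in the same 9 low lines. With a different probe set, ALL-SIL read 200.2, within the range of the high lines (164.8 to 379). On the next, ALL-SIL read 153.0, HSB-2 148.8, P12-ICHIKAWA 75.6 and CCRF-CEM 49.1, against 128.2 to 284 in the high lines. One more probe set read 232.7 in KOPT-K1 and at most 89.4 in every other line, and the sixth was at most 22.3 in all lines. MTAP RNA was thus listed as below or above 60 in ALL-SIL, HSB-2 and P12-ICHIKAWA depending on the probe set, and as above 60 in all 4 high lines on these 4 probe sets.

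**Figure D1:**
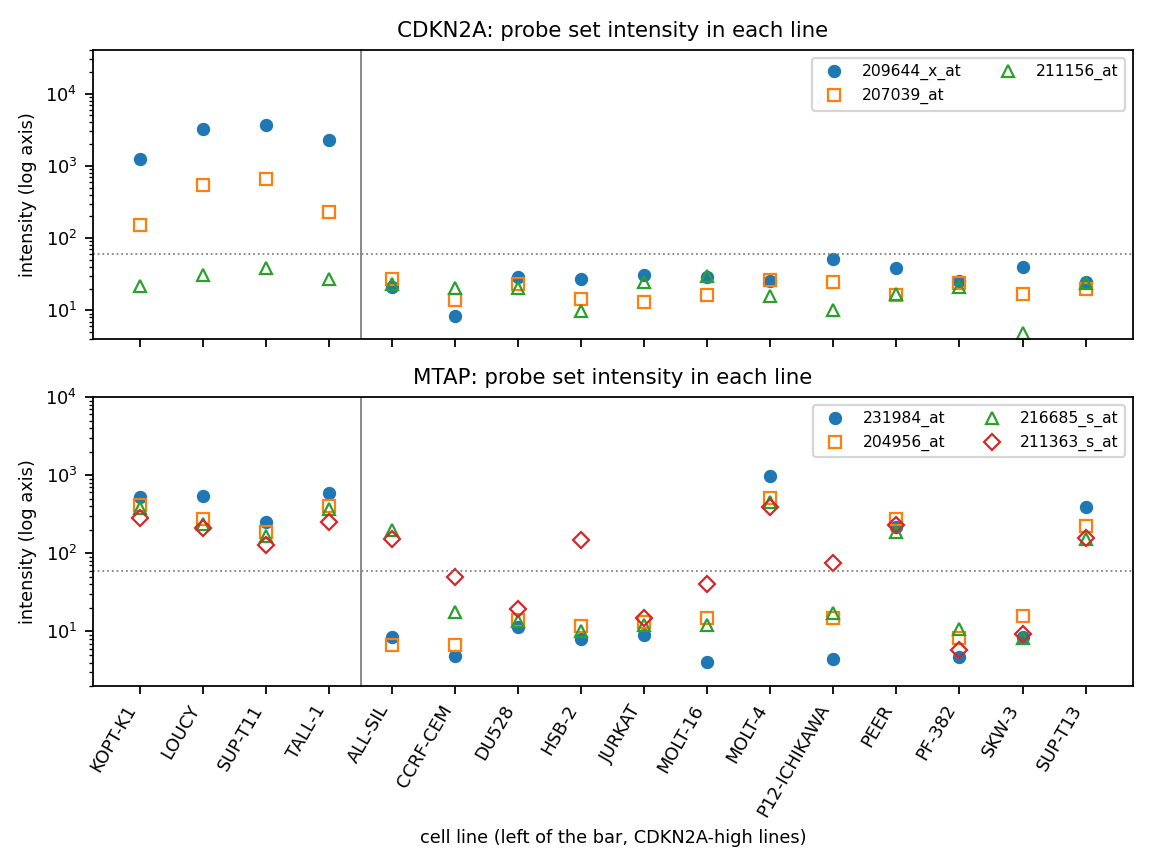
Intensity of 3 CDKN2A probe sets (top) and 4 MTAP probe sets (bottom) in each of the 16 lines, on log axes, with a dotted line at 60 and the 4 high lines left of the bar. CDKN2A is above 1000 in the high lines on the chosen probe set, and all 4 MTAP probe sets lie above 60 there and in MOLT-4, PEER and SUP-T13. Some but not all of the 4 do so in ALL-SIL, HSB-2 and P12-ICHIKAWA.

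Of 33 measured neighbours of CDKN2A, 22 stayed below 60 in every line, among them all 15 interferon genes of the cluster, whose highest value was 37.9. CDKN2B, the p15INK4b gene beside CDKN2A, read 57.7 in KOPT-K1, 44.1 in LOUCY, 14.9 in SUP-T11 and 13.4 in TALL-1. It ran from 10.9 to 44.0 on the low side, with a median of 27.5, so the high side did not stand apart in it. KLHL9 encodes a substrate adaptor of a cullin 3 ubiquitin ligase and lies within the interferon cluster. It read 2557, 896, 889 and 2233 in KOPT-K1, LOUCY, SUP-T11 and TALL-1. It lay below 60 only in the low lines DU528, JURKAT and PF-382, each also MTAP-low. Further towards the telomere, FOCAD and MLLT3, an AF9 chromatin reader, were both below 60 in PF-382, at 6.86 and 8.93. In DU528 MLLT3 read 57.9 on the chosen probe set and 64.7 and 30.5 on its others. FOCAD, which lies nearer to KLHL9 than MLLT3 does, was highest of all lines in DU528, at 1522. IFT74, an intraflagellar transport subunit on the centromere side, was below 60 in JURKAT, at 18.0, and in SUP-T13.

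Of the 10 neighbours at 60 or above in at least 3 lines, HACD4 and MOB3B were the ones below 60 in a high line, each in 2 of them. HACD4, an enzyme of very long chain fatty acid synthesis, read 1646 in KOPT-K1, 11.7 in LOUCY, 674 in SUP-T11 and 4.53 in TALL-1 and was also below 60 in 4 low lines. CAAP1, PLAA and C9orf72 were above 60 in all 16 lines. In all, 11 of the 33 neighbours passed the filter on low values (at least 3 values above the table's median of 42.4), and none passed the test.

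**Figure D2:**
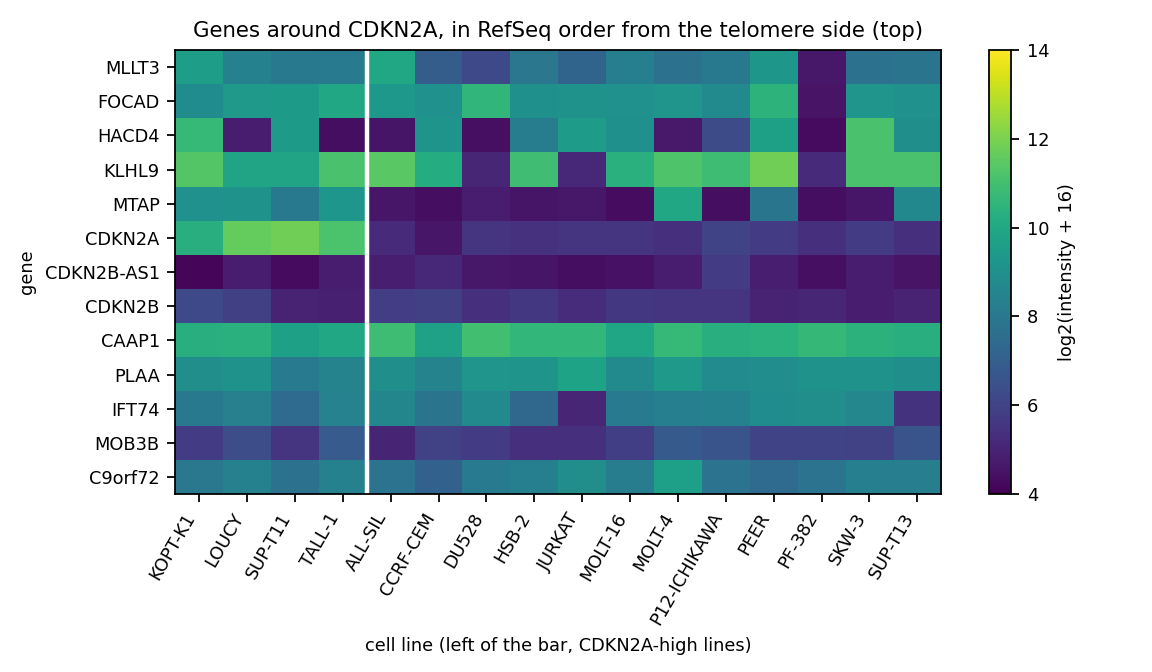
Colour gives log2(intensity + 16) of genes around CDKN2A, in genome order (rows) and in each line (columns), with the 4 high lines left of the bar. The 9 dark MTAP cells are all on the low side, on the probe set drawn. Another MTAP probe set reads above 60 in ALL-SIL, HSB-2 and P12-ICHIKAWA. KLHL9, towards the telomere, is also dark in DU528, JURKAT and PF-382. The interferon genes measured between KLHL9 and MTAP were below 60 in every line and are not drawn. HACD4 is dark in the high lines LOUCY and TALL-1.

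No gene passed the test across all genes. Of 13328 genes tested with limma, CDKN2A left out, 0 were higher and 0 lower in the high lines at an adjusted p under 0.05 (0% in each direction), while 994 (7.46%) had an unadjusted p under 0.05, of which 441 (3.31%) were higher and 553 (4.15%) lower. Plain limma without a trend also called 0, with 1005 at an unadjusted p under 0.05. The smallest adjusted p was 0.0657. The sides did not overlap for 23 genes (0.173%), of which 8 were higher (0.06%) and 15 lower (0.113%) in the high lines. The high lines were less alike than the low ones: the median Pearson r over the tested genes was 0.828 for the 6 pairs of high lines (0.805 to 0.888), 0.88 for the 66 pairs of low lines and 0.849 between the sides, as a description over genes that are not independent.

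TAL1, a transcription factor switched on in many T-cell leukaemias, differed between the sides as well. It read 16.8, 18.4, 18.55 and 17.1 in KOPT-K1, LOUCY, SUP-T11 and TALL-1, and 8 of 12 low lines read above 100, up to 3586 in JURKAT. The difference was -3.38 ± 1.16 (SE), adjusted p = 0.59. ALL-SIL, DU528, P12-ICHIKAWA and PEER were the low lines with TAL1 below 100. Among those 4 and the 4 high lines, limma called 0 genes, 350 (2.63%) had an unadjusted p under 0.05, and the groups did not overlap for 265 genes (1.99%). The part of TAL1 in any difference given here was tested only by that comparison and by a fit with TAL1 as a covariate, which also called 0 genes.

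GPR176, an orphan G-protein-coupled receptor, had the smallest p among genes higher in the high lines. It read 109.9 in KOPT-K1, 197.0 in LOUCY, 68.8 in SUP-T11 and 82.2 in TALL-1, against a lowest, median and highest of 9.36, 16.8 and 44.9 on the low side. Every high line lay above every low line, by 1.73 ± 0.28 (SE) on the log2 scale, adjusted p = 0.0657. Its other probe set had overlapping sides, at 31.6 to 72.9 in the high lines and 26.8 to 53.4 in the low. UBAC2, a ubiquitin-associated membrane protein of the endoplasmic reticulum, read 2058, 2412, 1795 and 2077 against 860 to 1672, again with no overlap (0.92 ± 0.15, adjusted p = 0.0657).

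RERE, a nuclear receptor corepressor, read 617 in KOPT-K1 and 996 to 1260 in the other high lines, against 255 to 739.7 on the low side, where ALL-SIL was highest (1.33 ± 0.25, adjusted p = 0.125). ZNF516, a zinc finger protein, read 20.97 in KOPT-K1, within the low range of 6.47 to 34.3, and 101.0, 192.4 and 118.7 in LOUCY, SUP-T11 and TALL-1. ZNF667-AS1, an antisense RNA beside ZNF667, showed the same split, with 12.45 in KOPT-K1 and 1316, 1666 and 903 in the others, against a low median of 16.2 and a highest low value of 172.0. TNFRSF10D, a decoy receptor for TRAIL, read 70.1, 34.8, 204.2 and 121.0 against at most 41.6, with LOUCY inside the low range. CD248, a surface glycoprotein also called endosialin, read 308, 222.3, 1202 and 417 against a low median of 36.3 and a highest low value of 321. Further genes of this direction were MTERF2, ZNF572, STON1, UBL3 and FOXN3, with differences from 1.02 to 2.02 and adjusted p from 0.236 to 0.27, and each had at least 1 high line within the low range.

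PDE4A, a phosphodiesterase that degrades cyclic AMP, had the smallest p among genes lower in the high lines. It read 3.77 in KOPT-K1, 33.3 in LOUCY, 42.3 in SUP-T11 and 2.24 in TALL-1, against a lowest, median and highest of 95.7, 565 and 2431 on the low side. No high line reached the low range, and the difference was -4.17 ± 0.67 (SE), adjusted p = 0.0657. Its 4 other probe sets were at most 53.3 in any line and did not separate the sides. Among the 8 lines with low TAL1 the difference was -4.32 ± 0.49 (SE), adjusted p = 0.144.

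POU2AF1, the B-cell coactivator OBF-1, read 16.4, 14.9, 10.8 and 11.4 in KOPT-K1, LOUCY, SUP-T11 and TALL-1 and from 21.5 to 721 on the low side, median 314 (-3.02 ± 0.65, adjusted p = 0.248). The high lines and DU528, the lowest low line, were all near background. The other POU2AF1 probe set was at most 21.4 in any line, with the sides overlapping. NKD2, an inhibitor of WNT signalling, read 514, 368, 8.13 and 136.6 against a low median of 2059, with overlap at the lowest low value of 287. PTPN3, a tyrosine phosphatase, read 194.6, 19.2, 8.01 and 236.8 against a low median of 998. MRPL18, a mitochondrial ribosomal protein, read 2857, 1875, 1739.6 and 3178 against 3281 to 4809, with no overlap (-0.67 ± 0.15, adjusted p = 0.248). BICD1, an adaptor of dynein, read 150.0 to 266 against 325 to 1309 on the chosen probe set, whereas 3 of its other 5 probe sets had a difference of the opposite sign. IFT140, an intraflagellar transport subunit, read 9.31 to 36.5 against 42.1 to 131.9 with no overlap, all near background. POGLUT2, a glucosyltransferase, and FARS2, the mitochondrial phenylalanyl-tRNA synthetase, differed by -2.83 and -0.68 with adjusted p = 0.314 each.

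The calls changed with the lines that entered the fit. Without KOPT-K1, 8 genes were higher and 8 lower at an adjusted p under 0.05, and 7 of the 16 were among the 24 genes with the smallest p in all lines. They were ZNF667-AS1, ZNF516, ZNF667, LINC00899, STON1, UBL3, RERE and ZNF572 above, and NRN1, NDFIP2, PA2G4, APTX, TKT, BBS7, FAT1 and UBE2N below. KOPT-K1 itself lay within the range of the 12 low lines for 13 of the 16. Genes called only without KOPT-K1 tend to be those in which it differs from the other high lines, so this count is a description. FAT1, a protocadherin, read 17.0 to 32.5 in the other 3 high lines, 2434 in KOPT-K1 and 227 to 5250 on the low side (-5.47 ± 0.96 without KOPT-K1, adjusted p = 0.0404). Leaving out LOUCY called TNFRSF10D, leaving out TALL-1 called EVI5, and leaving out SUP-T11 called 0. Of the low lines, leaving out JURKAT called GPR176 and BICD1, leaving out PF-382 called PDE4A, and leaving out SUP-T13 called UBAC2. The ACTB 3' to 5' control ratio as a covariate called PDE4A (-4.36, adjusted p = 0.0236).

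**Figure D3:**
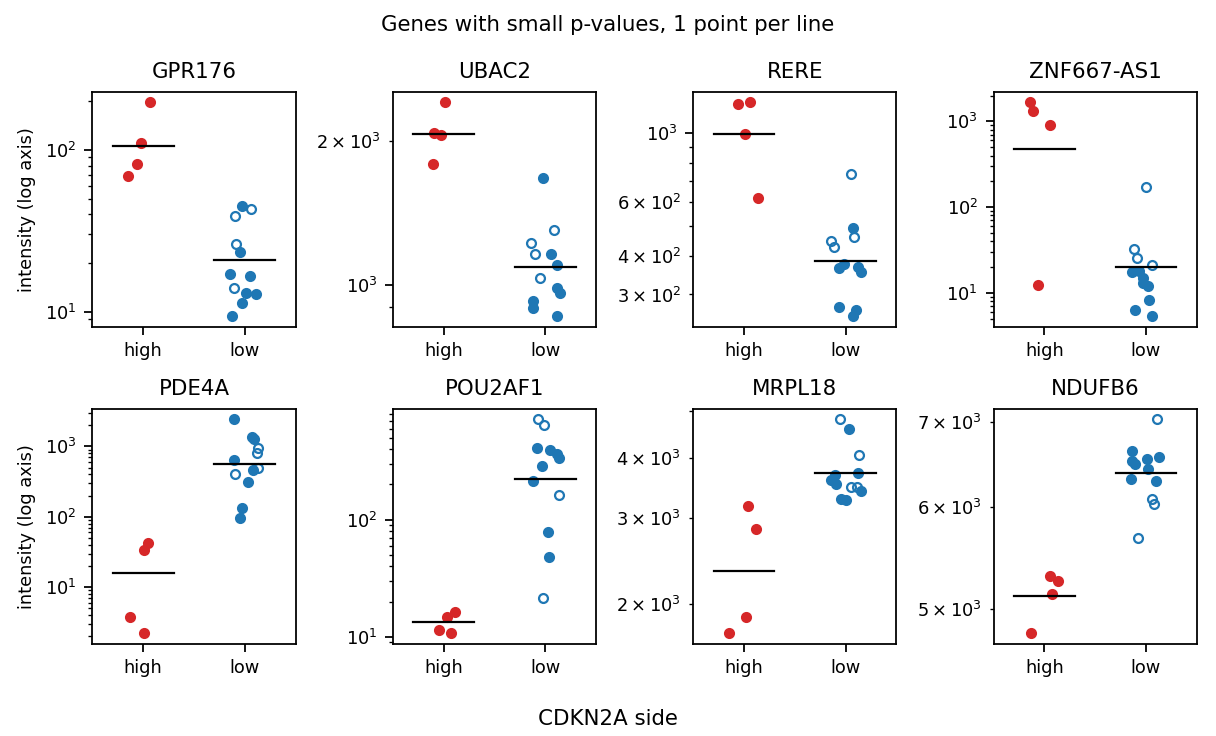
Intensity of 8 genes with small p-values in the 4 high lines (red) and 12 low lines (blue, open where TAL1 is below 100), on log axes, with bars at the mean of log2(intensity + 16) turned back to intensity. On the probe sets drawn, all red points lie apart from the blue for GPR176, UBAC2, PDE4A, POU2AF1, MRPL18 and NDUFB6, while KOPT-K1 falls among the blue for RERE and ZNF667-AS1. For POU2AF1 the red points and the lowest blue point are all near background.

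In the pathway of p16INK4a itself, 16 of 17 measured members of the INK4, CIP/KIP and RB list were tested and 0 passed. The unadjusted p was under 0.05 for 2, both lower in the high lines (12.5%, beside 7.46% of all genes), and the list's median difference was -0.143, beside -0.004 for all genes. Without SUP-T11 that median was 0.016, and without TALL-1 it was -0.269. Those 2 were the kinases CDK4, the target of p16INK4a, and CDK2, the partner of cyclins E and A. CDK4 read 4179, 3059, 2513 and 2412 in KOPT-K1, LOUCY, SUP-T11 and TALL-1, against a lowest, median and highest of 3107, 3813 and 5495 (-0.40 ± 0.15, adjusted p = 0.595). CDK2 read 1985, 1022, 1399.9 and 1361 against 1534, 1905 and 2273 (-0.41 ± 0.15, adjusted p = 0.6). In both genes 3 high lines lay below every low line and KOPT-K1 did not.

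Single members of this pathway were at background in single high lines. CDK6, the other target of p16INK4a, read 10.2 in SUP-T11 and 7056, 11872 and 11737 in KOPT-K1, LOUCY and TALL-1, against 6779 to 13685 on the low side. All 7 CDK6 probe sets were low in SUP-T11, from 1.82 to 21.7, and none was below 102.6 in any other line. RB1, the target of those kinases, read 2619, 2700 in LOUCY, 324 in SUP-T11 and 3908 in TALL-1. On the low side the same probe set was 3.14 in ALL-SIL and 2.67 in HSB-2 and from 2169 to 6298 in the others. The second RB1 probe set ran the other way in these low lines, with its highest values of all 16 lines in HSB-2 at 1139.3 and ALL-SIL at 838, so RB1 RNA cannot be called absent there. It was lowest in SUP-T11, at 23.1, against 156.9 to 262 in the other high lines, so SUP-T11 was low on both probe sets. The difference of RB1 was 0.11 ± 1.51 (SE), adjusted p = 0.992, and its sign turned with the setting.

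CCND2, cyclin D2, read 1512, 1712, 1611 and 9.25 in KOPT-K1, LOUCY, SUP-T11 and TALL-1. On the low side DU528 with 6607 and SUP-T13 with 2203 exceeded these, and the median was 34.4 (2.19 ± 1.49, adjusted p = 0.764). CCND3, cyclin D3, read 6414, 2639, 1166 and 8435 against a low median of 5481. CDKN1A, the p21 inhibitor and a p53 target, read 1272 in KOPT-K1, 684 in LOUCY, 6.28 in SUP-T11 and 5.57 in TALL-1, and on the low side it exceeded 111 only in DU528 and HSB-2. CDKN1B, the p27 inhibitor, read 905, 526, 1219 and 2718 against a low median of 1738, and CDKN2D, p19INK4d, read 93.7 to 321 against a low median of 272. The RB relatives RBL1 and RBL2 differed by 0.06 and 0.30, both with overlap.

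All 10 E2F and DP factors were tested and 0 passed, with 0 at an unadjusted p under 0.05. E2F1 differed by 0.00 ± 0.21, at 387 to 666 in the high lines and 310.0 to 659 in the low. TFDP1, the dimer partner of the E2F factors, was at background in 1 high line, with 19.4 in LOUCY and 4837, 4146 and 4812 in KOPT-K1, SUP-T11 and TALL-1. LOUCY was below 20 on all 3 TFDP1 probe sets, and no other line was below 349 on any of them. TFDP2, its paralogue, read 3529 in LOUCY, against a low median of 5666. E2F2 read 1314, 839, 3379.5 and 1843 against a low median of 1400.1.

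Of the E2F target genes, 34 of 36 were measured and tested, 0 passed, and 2 had an unadjusted p under 0.05 (5.88%, beside 7.46% of all genes). The list's median difference was -0.082, with a negative difference in 26 of 34 (76.5%, beside 50.7% of all genes). Without SUP-T11 it was 0.051 and without KOPT-K1 -0.192. MCM7, a subunit of the replicative helicase, read 5949.7, 4839, 4581 and 7026 in KOPT-K1, LOUCY, SUP-T11 and TALL-1 against 5819, 6617 and 8143 (-0.27 ± 0.10, adjusted p = 0.601). BRCA1, a DNA repair factor, read 1549, 1255, 1157 and 1337 against 1414, 1637 and 2709.6 (-0.37 ± 0.14, adjusted p = 0.595). UHRF1, which maintains DNA methylation, GINS2, of the replication helicase, ORC1, of the origin complex, and RRM2, of ribonucleotide reductase, differed by -0.47, -0.45, -0.37 and -0.34 with the sides overlapping. Among 15 mitosis genes 0 passed and the median difference was 0.025, or 0.139 without LOUCY and -0.133 without TALL-1. Of these, MKI67 stood at 0.35 ± 0.26 and the kinesin CENPE at 0.34 ± 0.14, adjusted p = 0.623.

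**Figure D4:**
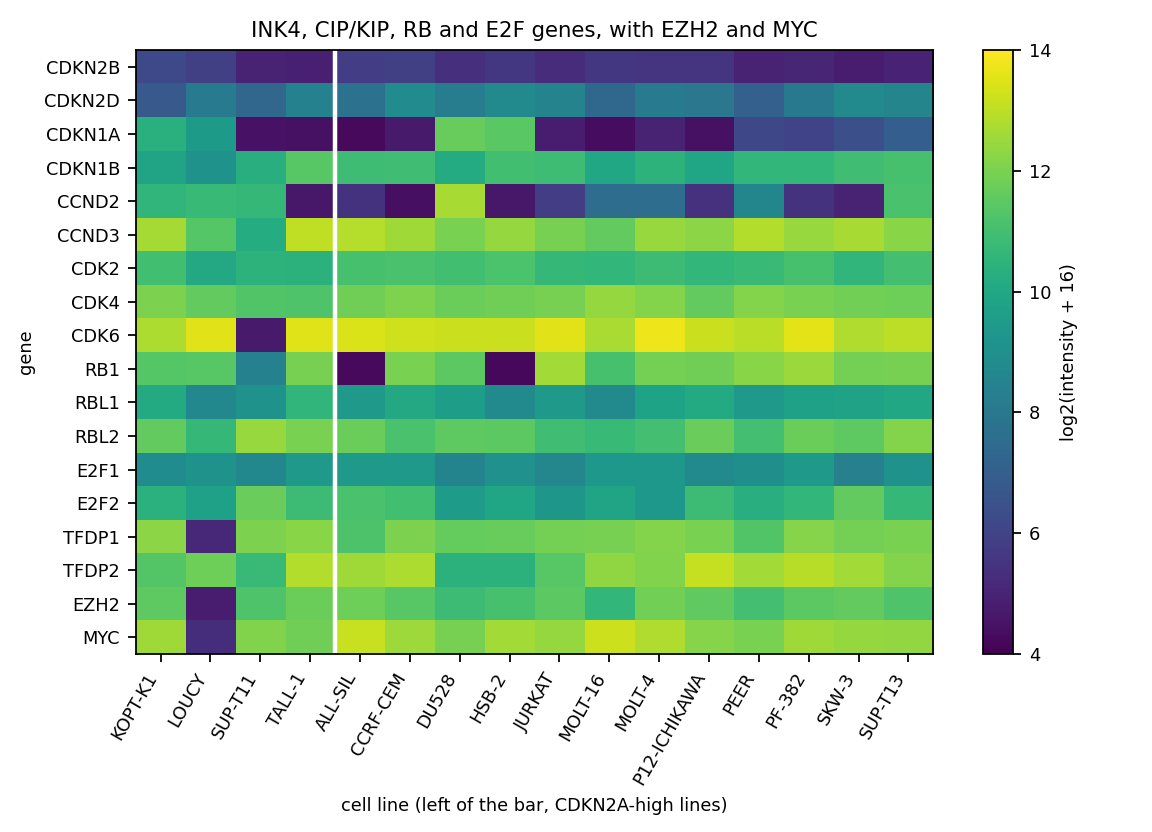
Colour gives log2(intensity + 16) of INK4, CIP/KIP, RB and E2F genes, with EZH2 and MYC, in each line, the 4 high lines left of the bar. Dark cells include CDK6 in SUP-T11, TFDP1, EZH2 and MYC in LOUCY, and RB1 in ALL-SIL and HSB-2 on the probe set drawn. The other RB1 probe set is highest in these 2 lines. CCND2 is dark in TALL-1 but also in many low lines, where its median is 34.4. CDKN1A is dark in SUP-T11, TALL-1 and many low lines (low median 32.75), and CDKN2B is below 60 in every line.

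In the pathway of p14ARF, all 14 measured genes among p53 and its regulators were tested and 0 passed. ATR, the replication stress kinase, was the 1 member with an unadjusted p under 0.05 (7.14%, beside 7.46% of all genes), at 1618, 1211, 1547.5 and 1484 in KOPT-K1, LOUCY, SUP-T11 and TALL-1 against 1464, 1805 and 1956 (-0.27 ± 0.10, adjusted p = 0.595). MDM2, the p53 ligase that p14ARF binds, read 2264, 2333, 1359 and 1499 against 1143, 1703 and 2883, a difference of 0.03 ± 0.21. MDM4, its relative, differed by 0.16 ± 0.23 and PPM1D, a phosphatase of p53, by 0.34 ± 0.19. USP7, a deubiquitinase of MDM2, was low in LOUCY at 1216, against 3092 to 3924 in the other high lines and a low median of 4405.

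Of 34 p53 target genes, 31 were measured and 27 tested, 0 passed, and 2 had an unadjusted p under 0.05 (7.41%, beside 7.46% of all genes). DDB2, a sensor of ultraviolet damage, read 1196, 1195, 799 and 620.0 in KOPT-K1, LOUCY, SUP-T11 and TALL-1 against 322, 549.9 and 1117 (0.59 ± 0.26, adjusted p = 0.646). RRM2B, the p53-dependent ribonucleotide reductase subunit, read 573, 828, 315 and 229.7 against 372, 815 and 1275 (-0.77 ± 0.35, adjusted p = 0.652). TNFRSF10B, a TRAIL death receptor, read 437, 1529, 422 and 583 against 3.48, 220.9 and 1120.0 (1.70 ± 0.92, adjusted p = 0.715). FAS, another death receptor, read 952, 689, 49.8 and 17.7 against 124.6, 513 and 1405, so that SUP-T11 and TALL-1 lay below every low line. TP53INP1 and GADD45A, a stress regulator of the cell cycle, differed by 1.41 and 1.07, PMAIP1, the NOXA apoptosis gene, read 15.7 in SUP-T11 and 10838 in LOUCY, and TIGAR, a regulator of glycolysis, read 19.1 in TALL-1. The list's median difference was 0.029, and it was -0.235 without KOPT-K1, -0.183 without LOUCY, 0.131 without SUP-T11 and 0.202 without TALL-1. The self-test on simulated lines with normal noise changed 50, 50 and 100 genes by log2 1, 2 and 4. It recovered 46%, 76% and 98% of them. Many changed genes ease the adjusted threshold, so these rates do not carry over to the fit of the real lines, where 0 genes passed.

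MTAP feeds methionine salvage, and the 17 genes of that pathway, polyamine synthesis and the PRMT5 methyltransferase complex were all tested, with 0 passing. MTAP, RIOK1 and CLNS1A had an unadjusted p under 0.05 (17.6%, beside 7.46% of all genes). RIOK1 and CLNS1A are substrate adaptors of PRMT5 and were lower in the high lines, by -0.48 ± 0.17 and -0.23 ± 0.09, adjusted p = 0.595 and 0.624. RIOK1 read 1568, 1078, 719.5 and 1512 against 1420.4, 1534 and 2129.7, with LOUCY and SUP-T11 below every low line. PRMT5 itself differed by -0.17 ± 0.18, and ADI1, a further enzyme of salvage, by 0.48 ± 0.23, adjusted p = 0.682.

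Of the Polycomb and other regulators of INK4 genes, 20 of 22 measured genes were tested and 0 passed. EZH2, the Polycomb methyltransferase, read 2958, 12.2, 2413 and 3464 in KOPT-K1, LOUCY, SUP-T11 and TALL-1 against 1577, 2754 and 3768, so it was near background in LOUCY alone. ETS2, an activator of the p16INK4a promoter, read 1909, 629, 27.3 and 157.7 against 342, 1167 and 5719 (-2.05 ± 0.83, adjusted p = 0.623). RING1, of Polycomb complex PRC1, read 1199.6, 753, 1114 and 1023 against 1077, 1272 and 1675 (-0.35 ± 0.14, adjusted p = 0.623). PCGF2 differed by 1.02 ± 0.77 and JARID2 by -0.80 ± 0.40. MYC, which drives growth genes, read 6084, 23.6, 4335 and 3638 against 3914, 5699 and 9553 (-2.07 ± 0.89, adjusted p = 0.642), again lowest in LOUCY.

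The rest of the arm differed on the 2 sides of CDKN2A in the fit of all lines, a split made after the values were seen. Towards the centromere 85 genes were tested and 65 (76.5%) were lower in the high lines, beside 50.7% of all genes, with a median difference of -0.28. Of these, 24 (28.2%) had an unadjusted p under 0.05 and were lower, beside 4.15% of all genes, and 0 were higher. Towards the telomere 45 genes had a median of 0.07, with 0 lower at that p, and the 406 genes of the long arm a median of -0.082. The high lines contributed unequally. The median over the centromere-side genes, relative to the mean of the low lines, was -0.60 in SUP-T11, -0.27 in TALL-1, -0.15 in KOPT-K1 and -0.06 in LOUCY. The low lines ran from -0.29 in P12-ICHIKAWA to 0.10 in HSB-2, and P12-ICHIKAWA was the 1 low line below LOUCY. On the telomere side the low lines spread more widely, from -0.6 in P12-ICHIKAWA to 0.8 in PEER. Without SUP-T11 the centromere-side median was -0.146. Among the 8 lines with low TAL1 it was -0.221, with 64 of 85 genes lower, beside 6544 of all 13328 genes. The telomere-side median was then -0.119, with 30 of 45 genes lower, so the 2 sides differed less there. Genes of an arm are not independent, and chromosome 16 had a lower median than chromosome 9 as a whole (-0.122 and -0.107).

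NDUFB6, a subunit of mitochondrial complex I on the centromere side, read 5261, 5302, 4788 and 5138 in KOPT-K1, LOUCY, SUP-T11 and TALL-1. It was 5680.5 to 7030.1 on the low side, so the sides did not overlap, although the difference was small (-0.32 ± 0.06, adjusted p = 0.123). Its other probe set had overlapping sides, at 35.9 to 57.3 in the high lines and 40.2 to 68.5 in the low. APTX, the aprataxin DNA repair enzyme and neighbour of NDUFB6, read 701, 503, 373 and 555 against 644, 970.3 and 1109 (-0.84 ± 0.15, adjusted p = 0.125), with KOPT-K1 inside the low range. CCDC107 read 278, 170.5, 108.7 and 122.5 against 212, 327 and 425 (-0.91 ± 0.22, adjusted p = 0.392). Chosen after their values were seen, DCTN3, a dynactin subunit, differed by -0.80 ± 0.20, EXOSC3, of the RNA exosome, by -0.60 ± 0.16, and BAG1, a cochaperone, by -0.94 ± 0.25, with adjusted p from 0.392 to 0.481. BAG1 was 3230 in LOUCY, above the low median of 2830.2, and 1026 to 1403 in the other high lines.

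**Figure D5:**
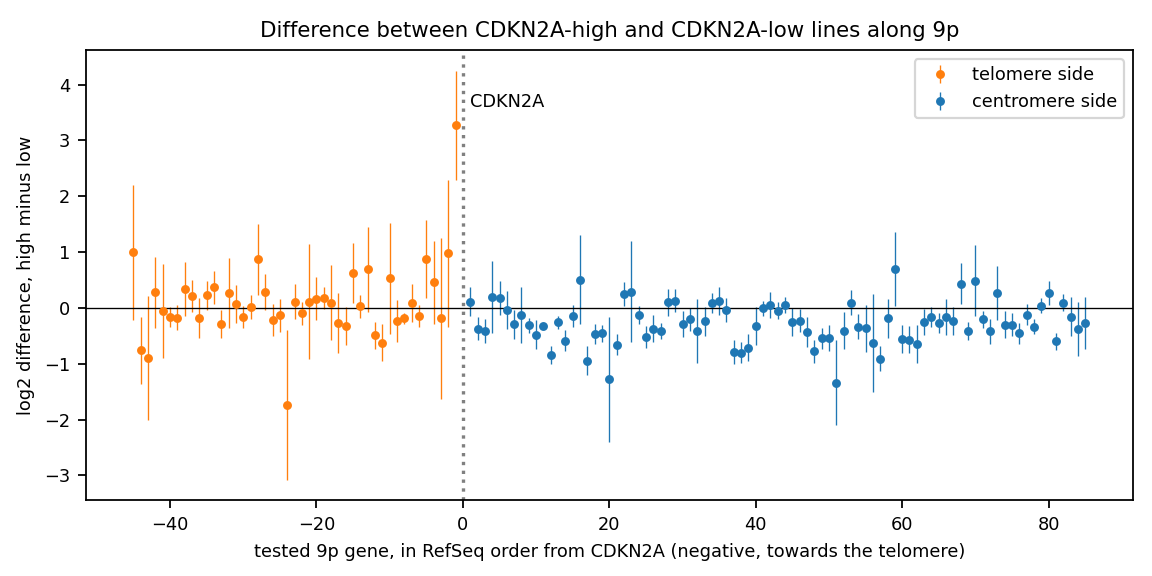
Difference in log2(intensity + 16), high minus low, with standard errors, for each tested gene of 9p in genome order from CDKN2A. MTAP stands at 3.27 next to CDKN2A, and 65 of the 85 centromere-side points lie below 0.

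Measures of array quality overlapped between the sides. The ACTB 3' to 5' control ratio ran from 1.45 to 1.80 in the high lines and 1.44 to 2.03 in the low (two-sided exact permutation p = 0.631 over 1820 assignments), and that of GAPDH from 0.931 to 1.05 and 0.904 to 0.98 (exact permutation p = 0.375). Array medians ran from 37.6 to 45.0. Summed markers of the T-cell receptor complex, all 11 measured, ran from 26073 to 47413 in the high lines and from 12172 to 45613 in the low. Of 6 B-cell markers 2 were below 60 everywhere, and the sum was 206.7 to 2516 on the high side and 114.3 to 1170.5 on the low. For 8 stromal markers it was 265 to 2877 and 216.6 to 1269.6, and for 7 myeloid markers 143.1 to 764 and 113.7 to 845. For 5 erythroid and megakaryocytic markers it was 131.0 to 790.0 and 99.1 to 627.3, and for 18 immature T-cell and progenitor genes 7647.7 to 43350.7 and 3567.1 to 35279.5. The median difference of the 13 tested immature genes was 0.108, or -1.636 without LOUCY. LOUCY was highest in the B-cell, stromal, erythroid and immature sums, and the part of these in the results was not tested.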

How the data were processed

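RNA of 16 cell lines was hybridised to 1 array each. Per the labels, RNA was extracted with Trizol and an RNeasy column and labelled with biotin by the standard Affymetrix protocol. The authors deposited probe set intensity values on a linear scale, from 0.6 to 24485 over 54675 probe sets, and for their software, background correction and scaling nothing is stated (not given in the sources used here). No further normalization was applied, and the number of arrays limits the precision.

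Probe sets were named from the platform annotation supplied with the series (41091 with 1 gene, 1801 with several, 11721 with none listed), and 41037 matched RefSeq of GRCh38.p14. Each of 19775 genes was represented by its probe set with the highest mean. Values were taken as log2(intensity + 16). A gene was tested if at least 3 of the 16 values exceeded the table median of 42.4, which left 13328 genes without CDKN2A. The sides were compared with limma 3.58.1 (trend and robust, R 4.3.3), with Benjamini-Hochberg adjustment over all tested genes and a threshold of 0.05. Differences and folds on this scale understate changes of low genes. The fit was tested on simulated data with known changes, in which it made 11 false calls. Python 3.11.15 was used for the other steps.

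The sides, gene lists and naming rule were chosen with earlier results of these data known. The text names the members of the INK4/RB, E2F, p53 and 9p21 lists with the largest differences, for each direction the 12 genes of smallest p, at most 6 members with the largest difference of each other list and further 9p genes that passed or whose sides did not overlap. A name outside the rule is stated as such. Probe sets naming several genes were left out. Alternatives were other pseudocounts, filters, normalizations, probe set rules and limma settings, the ACTB control ratio and TAL1 as covariates, lines with low TAL1 alone, and leaving out each line in turn. The p-values set the difference between sides against the spread between lines. Since each line is a separate culture measured once, that spread also holds culture and array variation, which cannot be separated.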

Additional observations from a re-analysis of the deposited data

Results flagged for a closer look

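Among the 114 genes given with values, 16 had 1 high line far from the other 3, where the gap to the nearest line, as a share of the range of the 4 in log2(intensity + 16), exceeded Dixon's critical value. Chance gives this in about 1 in 20 groups, and several of these genes were named for their large differences.

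SUP-T11 was the far line for 6 of them and always the lowest, with MTAP at 247.8, CDK6 at 10.2, RB1 at 324, MYB at 230.2, CLNS1A at 3509.7 and ETV6 at 28.6. LOUCY was far for 5, lowest in TFDP1 at 19.4, EZH2 at 12.2 and MYC at 23.6, and highest in MEF2C at 4433 and ERG at 4092. TALL-1 was lowest in CCND2 at 9.25 and in TIGAR at 19.1, and highest in DNTT at 4769. KOPT-K1 was lowest in ZNF667-AS1 at 12.45 and in FOXN3 at 1858.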

How the results depend on the processing

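The counts of 0 genes higher and 0 lower held under other pseudocounts, filters, normalizations, probe set rules and limma settings, and with TAL1 as a covariate or lines with low TAL1 alone. The ACTB control ratio as a covariate gave 1 gene lower. Leaving out 1 line at a time gave 0 to 8 genes higher and 0 to 8 lower, and 0 called E2F or p53 target genes in each of the 16 fits. Genes whose sides did not overlap numbered 24 to 161 in these fits and 265 with low-TAL1 lines alone, where fewer lines make non-overlap easier. The RB1 difference turned to -0.14 with a pseudocount of 64 and to -0.48 with the mean of all its probe sets, and ran from -0.48 to 0.9 when 1 line was left out; the cause was not tested. MTAP ran from 3.15 to 3.67 over these fits. Of 670 values of the 24 genes with the smallest p under alternatives, 656 kept direction and side of the threshold, 13 passed it and 1 turned, BICD1 at 0.59 with the probe set of highest SD. No paired analysis applied, because each line was measured on 1 array and the labels name no pairs of lines.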

Other observations

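The T-ALL factors other than TAL1 differed from line to line within the high side. Of 15 tested factors 0 passed limma and 3 (20%) had an unadjusted p under 0.05, all lower in the high lines, beside 4.15% of all genes, namely TAL1, MYC and LEF1. LEF1, a partner of beta-catenin and an early T-cell factor, read 6440.0 in KOPT-K1, 6219 in LOUCY, 4493 in SUP-T11 and 7710.1 in TALL-1 against a low median of 8974 (-0.57 ± 0.18, limma adjusted p = 0.579). LMO2, a partner of TAL1, read 5946, 2327, 8.68 and 14.1, and MYB read 5503, 10335, 230.2 and 8352. MEF2C and ERG, factors of progenitor cells, were high in LOUCY alone among the high lines. HEY1, a NOTCH target, read 602 in LOUCY and 659 in TALL-1, 15.7 in KOPT-K1 and 37.2 in SUP-T11, and at most 120.6 on the low side (1.88 ± 0.70, adjusted p = 0.595). NOTCH1 itself read 4116, 408, 36.3 and 3581 against 938 to 4019, so LOUCY and SUP-T11 lay below every low line. Of 14 cortical thymocyte genes 12 (85.7%) had a negative difference, beside 50.7% of all genes, 0 with an unadjusted p under 0.05. The median difference was -1.089, and it was -0.427 without LOUCY, -0.321 without SUP-T11 and -0.356 among lines with low TAL1. RAG1, of antigen receptor recombination, read 562 in KOPT-K1 and 7.19 to 27.3 in the other high lines, and DNTT, a polymerase of the same process, 4769 in TALL-1 and at most 69.0 in the others.

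Some genes stood out outside the naming rule and were chosen after their values were seen. AUTS2, a Polycomb-associated chromatin factor, had the largest positive difference of all tested genes, with 1220.4, 2701, 2147 and 1142 in KOPT-K1, LOUCY, SUP-T11 and TALL-1. SUP-T13 with 1427 and JURKAT with 612 were the highest low lines, and the low median was 24.2 (4.37 ± 1.02, adjusted p = 0.314). ALDH1A2, a retinoic acid synthesis enzyme, had the largest negative difference, with 9.99 to 16.8 in the high lines and a low median of 1441, although low lines reached down to 7.10 (-4.41 ± 1.66, adjusted p = 0.595). ZNF542P, SRGAP2, a regulator of RAC signalling, and MAN1A2, a Golgi mannosidase, were above all low lines in every high line, by 3.28, 1.19 and 0.47. WDR4, of a tRNA methyltransferase, and SLC31A2, a copper transporter on the long arm of chromosome 9, were below all of them, by -0.89 and -0.93.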
